A study of Mus musculus with 28 samples.

Results

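A set of 10 chemokine ligand genes of the macrophage was followed across all 28 libraries of the series: Cxcl9, Cxcl10, Cxcl16, Ccl2, Ccl3, Ccl4, Ccl5, Ccl7, Ccl9 and Ccl12. They were taken as a named list, with no threshold on a measured value, and make up 10 of the 55487 mouse genes in each library's table. The cells were macrophages grown from the bone marrow of wild-type mice (BMDMs), cultured for 48 h, and their polyadenylated RNA was sequenced. There were 7 groups of 4 libraries. The M0 group received neither cytokine. The other 6 groups were kept with IFN-γ or with IL-10, each at 50 ng/mL, and within each cytokine the macrophages were sorted as non-phagocytic, as having taken up conventional CD4+ T cells (Tconv), or as having taken up regulatory T cells (Treg). The T cells had been killed with ATP and NAD+ and stained with an antibody to CD4, and uptake was read from its dye. The sources used here give no strain, sex or age of the mice, no uptake status for M0, and no statement that replicates came from separate animals or cultures, so the p-values measure only the spread between these libraries. In all 8 Treg libraries the dye in the title and the dye in the library name disagree. Libraries are named here by their titles.

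Chemokines are small secreted proteins that guide leukocytes along gradients by binding receptors coupled to G proteins. CXCL9 and CXCL10 attract activated T cells and NK cells through CXCR3 and are textbook targets of interferon signalling. CXCL16 is anchored in the membrane, can be shed by proteases, and binds CXCR6. CCL3, CCL4 and CCL5 are inflammatory chemokines that attract T cells and monocytes, and are made by activated T cells as well as by macrophages. CCL2, CCL7 and CCL12 draw monocytes through CCR2, and CCL9 is a mouse ligand of CCR1.

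The genes lie in few places of the mm10 genome, as annotated by GENCODE. Cxcl9 (chr5:92321347-92328079) and Cxcl10 (chr5:92346638-92348889) are neighbours on the minus strand of chromosome 5. The other 8 are on chromosome 11. Ccl2 (chr11:82035571-82037453), Ccl7 (chr11:82045712-82047525) and Ccl12 (chr11:82101845-82103400) stand in a row on the plus strand. Ccl5 (chr11:83525778-83530518), Ccl9 (chr11:83572919-83578636) and Ccl3 (chr11:83647844-83649355) are on the minus strand, with Ccl4 (chr11:83662584-83664683) next to Ccl3 on the plus strand. Cxcl16 (chr11:70453983-70459984, minus strand) lies apart from them. No member overlaps another gene on its own strand. Cxcl10, Cxcl16 and Ccl2 overlap Art3, Zmynd15 and Gm17268 on the opposite strand.

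RefSeq promoter sequences (GRCm38.p6, the assembly mm10 is made from) matched 5 of the 10 members. The 250 bases before the start of transcription are shown for 4 of them, so that the 2 CXCR3 ligands (Cxcl9, chr5:92328080-92328329, minus strand; Cxcl10, chr5:92348890-92349139, minus strand) can be read beside 2 CC chemokines (Ccl3, chr11:83649379-83649628, minus strand; Ccl9, chr11:83578637-83578886, minus strand). An AP-1 element (TGANTCA) was also searched. Capitals mark matches, on either strand, to the interferon response element ISRE (GAAA, any 2 bases, GAAA), the STAT element GAS (TTCNNNGAA) or the NF-κB element.
Cxcl9: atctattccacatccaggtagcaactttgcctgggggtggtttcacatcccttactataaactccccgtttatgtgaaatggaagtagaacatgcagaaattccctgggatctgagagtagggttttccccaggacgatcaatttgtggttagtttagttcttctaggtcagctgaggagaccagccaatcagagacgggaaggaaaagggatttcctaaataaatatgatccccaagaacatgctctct
Cxcl10: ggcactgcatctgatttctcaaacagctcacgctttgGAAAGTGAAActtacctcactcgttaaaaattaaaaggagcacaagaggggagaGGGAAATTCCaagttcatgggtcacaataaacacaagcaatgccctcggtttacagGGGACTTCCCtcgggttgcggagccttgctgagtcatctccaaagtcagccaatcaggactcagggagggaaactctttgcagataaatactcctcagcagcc
Ccl3: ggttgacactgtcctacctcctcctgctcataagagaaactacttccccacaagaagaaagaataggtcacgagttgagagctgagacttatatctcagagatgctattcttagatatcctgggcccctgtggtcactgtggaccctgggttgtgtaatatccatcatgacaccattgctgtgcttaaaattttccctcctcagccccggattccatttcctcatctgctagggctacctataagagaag
Ccl9: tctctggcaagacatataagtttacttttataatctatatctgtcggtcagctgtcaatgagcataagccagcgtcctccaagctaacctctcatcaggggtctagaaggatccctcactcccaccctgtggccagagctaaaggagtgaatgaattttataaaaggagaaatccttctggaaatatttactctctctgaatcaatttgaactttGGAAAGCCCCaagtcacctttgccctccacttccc
Cxcl10 holds an ISRE match at −213 to −204 and NF-κB matches at −159 to −150 and −103 to −94. Ccl9 holds an NF-κB match at −35 to −26, and both hold AP-1 letters, at −74 to −68 and −53 to −47. None of the 4 elements is in the windows of Cxcl9, Ccl3 or Ccl12, and no window of the 5 holds the GAS letters. Of 32851 promoters of the same length, 2.98% hold the ISRE letters, 7.02% GAS, 3.9% the NF-κB element and 6.75% AP-1. A match of letters is a description and not a bound site.

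Values are TPM, a transcript abundance per length of transcript and per library total. Tests used log2(TPM + 1) after scaling each library by a trimmed mean, so that values compare with the bulk of genes, with adjusted p over all genes tested, called below 0.05. Genes entered a test with at least 1 TPM in at least 4 of its libraries. A log2 difference on this scale understates the change of genes near 1 TPM. TPM keeps no read totals. Read from the steps between low values and set against the deepest library, depth was roughly 70.4 to 100% for M0, 50.1 to 92.3% for the 12 libraries kept with IL-10, and 11.3 to 25.1% for the 12 kept with IFN-γ, whose low levels rest on few reads. All 14 macrophage markers were present in every group, with summed levels of 21339.5 to 26977.6 TPM per library over the 28 libraries. The 26 T cell markers were also read in every group, and none was at 0 in all libraries of a group: their summed level was 229.6 to 365.6 TPM in M0, 215.5 to 232.6, 255.5 to 313 and 361.7 to 404.6 TPM in the non-phagocytic, Tconv and Treg groups with IL-10, and 757.9 to 1217.1, 910.3 to 1118.3 and 876.3 to 1349.9 TPM in the same groups with IFN-γ. Il7r is a large part of the lower sums and did not follow most other markers. Its means were 159 TPM in M0, and 96.5 TPM with IL-10 and 96 TPM with IFN-γ in non-phagocytic cells. Those of Cd3e were 2.2, 3.97 and 21.7 TPM, so the sums understate the rise of such markers with IFN-γ.

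In M0 macrophages the 10 ligands differed widely in level. Ccl9 was highest at 198 ± 26 TPM (SD, n = 4), with 233.95, 195.34, 187.66 and 173.06 TPM in the 4 libraries. Next came Cxcl16 with 117.8 to 127.97 TPM and Ccl3 with 94.09 to 106.92 TPM, and each step in this order was free of overlap. Ccl4 (32.85 to 37.7 TPM) and Ccl5 (24.17 to 47.55 TPM) overlapped each other. The remaining 5, Ccl2, Cxcl10, Cxcl9, Ccl7 and Ccl12, had means of 1.16 TPM or less, and neighbours among them overlapped. The order changed with the cytokine. Under IL-10, Cxcl16 and Ccl9 had equal means of 218 TPM in non-phagocytic cells. Under IFN-γ, Ccl5 was the most abundant of the 10, with 37.9% of their summed level in non-phagocytic cells against 6.54% in M0. Their summed level was 492 ± 45.7 TPM in M0, 575 ± 14 TPM with IL-10 and 1100.5 ± 50 TPM with IFN-γ in non-phagocytic cells (SD, n = 4 each).

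**Figure D1:**
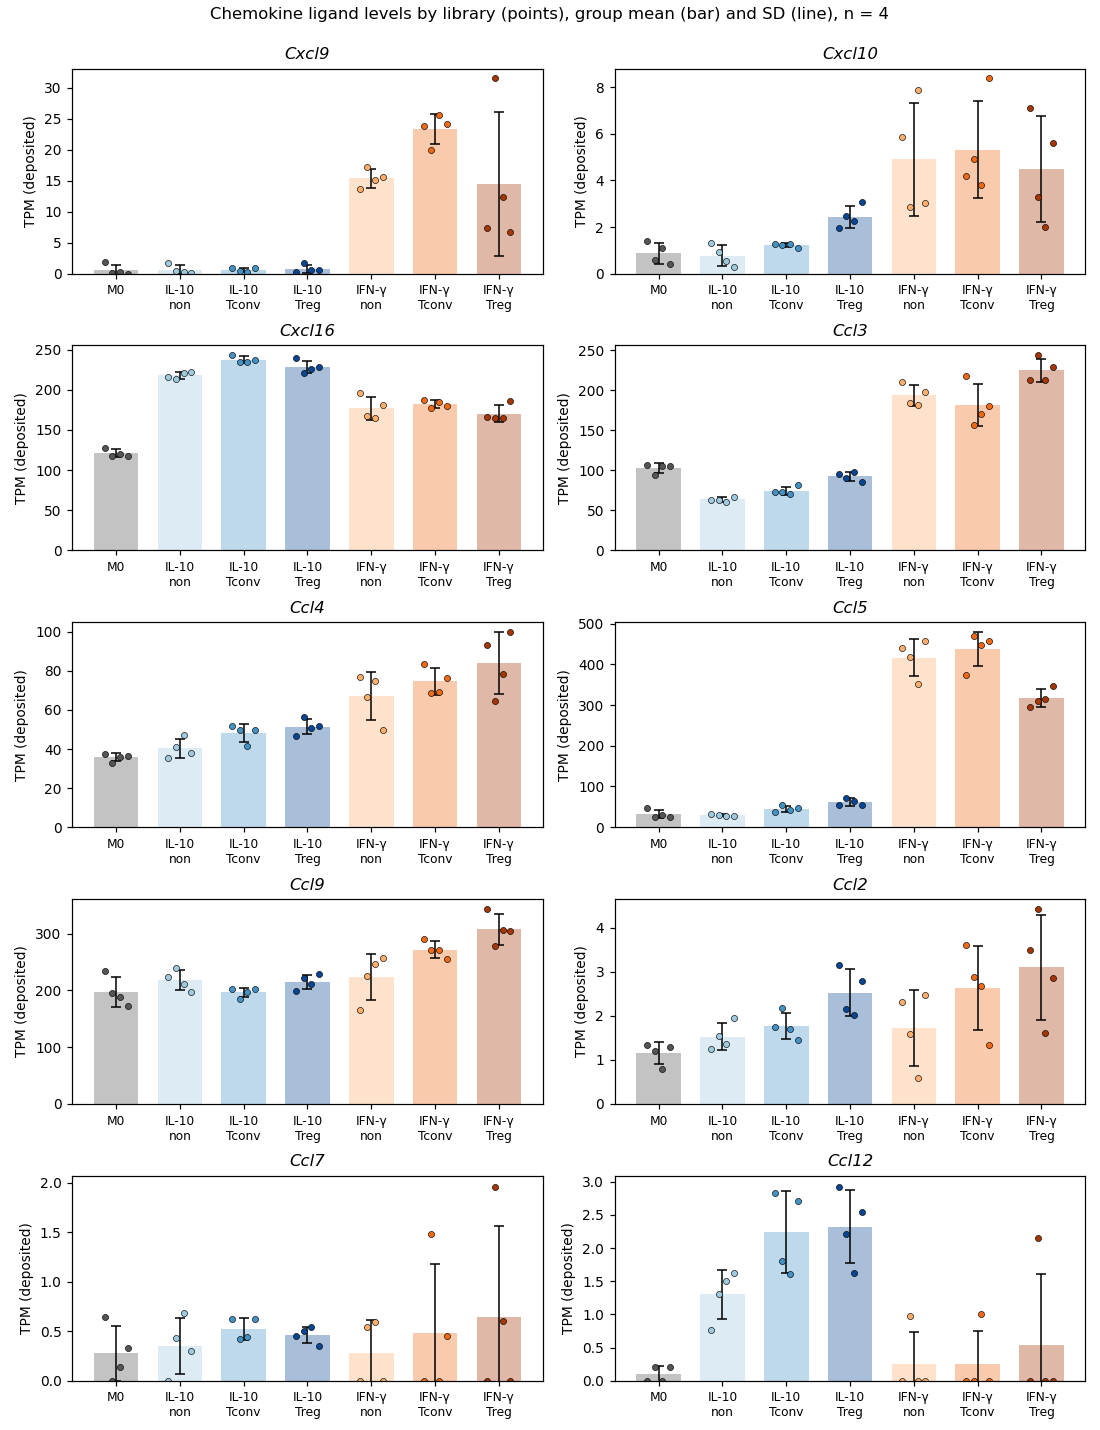
TPM of the 10 chemokine ligands in 7 groups on linear axes starting at 0, 1 panel per gene. Points are libraries, bars are means and lines are SD (n = 4). The means of Cxcl9, Ccl3 and Ccl5 are highest in the 3 IFN-γ groups, and that of Ccl12 in the 3 IL-10 groups, where it stays under 3 TPM.

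The first comparison sets macrophages kept with IFN-γ and sorted as non-phagocytic against M0. That sort was by dye, and the T cell marker sums of these libraries overlapped those of both IFN-γ uptake groups. The labels of M0 name no T cells, so the cytokine and any difference in exposure to T cells cannot be told apart. Of the 8 ligands that passed the filter, 7 were higher with IFN-γ and none was lower (Cxcl9, Cxcl10, Cxcl16, Ccl3, Ccl4, Ccl5 and Ccl9). The median difference of the 8 was 1.15 on the log2 scale, against −0.05 over all genes tested. Most genes moved in this comparison: 57.2% of 12068 genes were called, 27.7% as higher and 29.6% as lower (3340 higher and 3568 lower, or 2327 and 5475 with no scaling, which shifts the median of all genes to −0.29). Cxcl9 and Cxcl10 passed the filter through the IFN-γ libraries, so that their difference was partly set by the filter.

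Ccl5 and Cxcl9 had the largest differences, and which of them led depended on the scale. Ccl5 read 47.55, 26.13, 30.9 and 24.17 TPM in M0 and 440.6, 417.25, 352.01 and 456.83 TPM with IFN-γ. The groups did not overlap, and the difference was 3.96 ± 0.18 (SE) on the log2 scale (adjusted p = 1.85e-07). The ratio of the deposited means was 12.9. Cxcl9 read 1.83, 0.05, 0.25 and 0.02 TPM in M0 and 13.62, 17.18, 15.11 and 15.6 TPM with IFN-γ. It too was apart in all libraries, by 3.71 ± 0.29 (adjusted p = 5.17e-06), or 5.75 with a pseudocount of 0.1. The ratio of its deposited means was 28.6, over an M0 mean of 0.537 TPM that rests mostly on 1 library. Cxcl10, the other CXCR3 ligand, stayed low, at 0.42 to 1.38 TPM in M0 and 2.86 to 7.87 TPM with IFN-γ, a difference of 1.77 ± 0.30 (adjusted p = 0.000738).

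Ccl3 and Ccl4, which lie next to each other, shifted by about 1 log2 unit. Ccl3 was 94.09 to 106.92 TPM in M0 and 181.83 to 209.96 TPM with IFN-γ (1.17 ± 0.065, adjusted p = 5.79e-07). Ccl4 was 32.85 to 37.7 TPM in M0 and 49.96 to 76.95 TPM with IFN-γ (1.14 ± 0.12, adjusted p = 4.74e-05). Neither gene's groups overlapped. Cxcl16 rose from 117.8 to 127.97 TPM in M0 to 164.83 to 195.89 TPM (0.81 ± 0.065, adjusted p = 5.88e-06). Ccl9, whose groups overlapped (173.06 to 233.95 TPM against 165.22 to 257.17 TPM), passed the test at 0.44 ± 0.14 (adjusted p = 0.0202) but not with no scaling (adjusted p = 0.32), and 6 of its 15 alternatives lost the call, among them leaving out M0 replicate 3 (0.05) or 4 (0.0573) and IFN-γ non-phagocytic replicate 3 (0.0532) or 4 (0.055).

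The CCR2 ligands gave little. Ccl2 read 1.33, 1.21, 0.79 and 1.3 TPM in M0 and 2.31, 1.58, 0.58 and 2.47 TPM with IFN-γ. The groups overlapped and the difference of 0.44 had a 95% interval of −0.16 to 1.04 (adjusted p = 0.188); without IFN-γ non-phagocytic replicate 3 it was 0.70 with an adjusted p of 0.0112. Ccl7 (at most 0.64 TPM in both groups) and Ccl12 (at most 0.98 TPM) did not pass the filter. A single read of Ccl12 was worth roughly 0.722 TPM in the IFN-γ non-phagocytic libraries and 0.174 TPM in M0, and Ccl12 was at 0 in 3 of the 4 IFN-γ non-phagocytic libraries, which at that depth is not distinguishable from a low level.

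Against M0, macrophages kept with IL-10 and sorted as non-phagocytic had most of the ligands near their M0 level, with 1 gene up and another down. Here too the cytokine and any difference in exposure to T cells cannot be told apart. Cxcl16 rose: 127.97, 118.09, 120.06 and 117.8 TPM in M0 became 216.35, 212.76, 221.27 and 222.31 TPM, apart in all libraries, by 0.83 ± 0.03 on the log2 scale (adjusted p = 5.36e-08). Ccl3 fell: 106.92, 94.09, 105.4 and 105.27 TPM became 63.44, 63.05, 60.48 and 67.28 TPM, again apart, by −0.70 ± 0.05 (adjusted p = 3.63e-06). These were 1 higher and 1 lower of the 6 ligands that passed the filter, where 30.7% of 11883 genes were called, 15.9% as higher and 14.8% as lower. Ccl5 read 28.65 to 32.7 TPM with IL-10, inside the M0 range, with a difference of −0.05 and a 95% interval of −0.44 to 0.33. The intervals of Ccl2, Ccl4 and Ccl9 also held 0, with differences of 0.21, 0.15 and 0.13, although Ccl9 passed without M0 replicate 1, its highest M0 library (0.21, adjusted p = 0.0375). Cxcl9, Cxcl10, Ccl7 and Ccl12 were under the filter. Of these, Ccl12 was apart in all libraries (0, 0.2, 0 and 0.2 TPM in M0, 0.77, 1.31, 1.5 and 1.62 TPM with IL-10), and with no filter it differed by 0.99 (adjusted p = 0.0014).

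Set directly against IL-10, IFN-γ left 5 of 8 tested ligands higher and none lower in non-phagocytic cells (55.1% of 12089 genes were called, 26.9% as higher and 28.2% as lower; 3251 higher and 3410 lower, or 2175 and 5429 with no scaling). Their median difference was 1.42, against −0.05 for all genes tested, but Cxcl9 and Cxcl10 again passed the filter through the IFN-γ libraries, where they are high. Each of the 3 groups entered 2 of these 3 comparisons, so the 3 sets of differences are not independent. Ccl5 was 28.65 to 32.7 TPM with IL-10 and 352.01 to 456.83 TPM with IFN-γ (4.02 ± 0.09, adjusted p = 1.7e-09). The values of Ccl3, 60.48 to 67.28 TPM and 181.83 to 209.96 TPM, were also apart (1.87 ± 0.06, adjusted p = 1.9e-08). Cxcl9 differed by 3.59 ± 0.24 (adjusted p = 1.77e-06), Cxcl10 by 1.85 ± 0.30 (adjusted p = 0.000627) and Ccl4 by 0.98 ± 0.14 (adjusted p = 0.000233), all without overlap. Cxcl16 depended on the scaling: in deposited TPM all 4 IFN-γ libraries were lower (164.83 to 195.89 against 212.76 to 222.31 TPM; −0.30, adjusted p = 0.00121 with no scaling), and after scaling the groups overlapped, with a difference of −0.02 and an interval of −0.16 to 0.12. Ccl9 did not pass the test (0.31 ± 0.13, adjusted p = 0.0631), but did without IFN-γ non-phagocytic replicate 1, its lowest library (0.44, adjusted p = 0.0011). With no filter, Ccl12 was lower with IFN-γ, by −0.84 (adjusted p = 0.0443). It was at 0 in 3 of the 4 IFN-γ libraries, where 1 read is worth roughly 0.722 TPM, against 0.213 TPM with IL-10. Depth therefore limits this difference.

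T cell markers moved in the same comparisons. All 26 were higher with IFN-γ than with IL-10, with a median difference of 2.48 on the log2 scale, and 24 of 26 were higher and 1 lower against M0. T cells also make Ccl3, Ccl4 and Ccl5, and in a bulk library more cells of a type and more RNA per cell cannot be told apart. Markers of other cells moved as well. NK cell markers summed to 3.77 to 6.83 TPM in non-phagocytic cells with IFN-γ, against 0.2 to 0.68 TPM in M0 and 0.05 to 1.45 TPM with IL-10, with Klrk1 higher against M0 by 2.16 (adjusted p = 3.4e-05). The rest of the NK list was under the filter in that comparison. Dendritic cell markers summed to 10.1 to 26 TPM against 1.55 to 4.17 TPM in M0, with Clec9a (2.54, adjusted p = 0.000184), Ccr7 (2.27, adjusted p = 0.000166) and Itgae (1.48, adjusted p = 0.000429) higher. T cells also carry Ccr7. The rest of the dendritic list was under the filter. Flt3 and Siglech were at 0 TPM in every IFN-γ non-phagocytic library. Zbtb46 had a mean of 0.102 TPM there, against 0.118 TPM in M0. The B cell markers Cd79a (1.63, adjusted p = 2.22e-05) and Cd79b (0.99, adjusted p = 0.00434) were higher too. Cd22 was not called (0.10, adjusted p = 0.809), and the rest of the B cell list was under the filter. Klrk1, Clec9a, Itgae and Cd79a were under 1 TPM in every M0 library. They passed the filter through the IFN-γ libraries, so that their differences were partly set by the filter. The 12 stromal markers were lower in sum, at 38.87 to 55.69 TPM with IFN-γ against 135.5 to 150.1 TPM in M0 and 96.85 to 101.2 TPM with IL-10. Thy1, which is also in the T cell list, made up most of the IFN-γ sum, with a mean of 35.5 TPM against 4.53 TPM in M0. Col1a1 had means of 0.84 TPM with IFN-γ and 27.1 TPM in M0. The part of any of these markers in the ligand differences was not tested. For IL-10 against M0, 2 of the 22 T cell markers tested were higher and 2 lower.

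**Figure D2:**
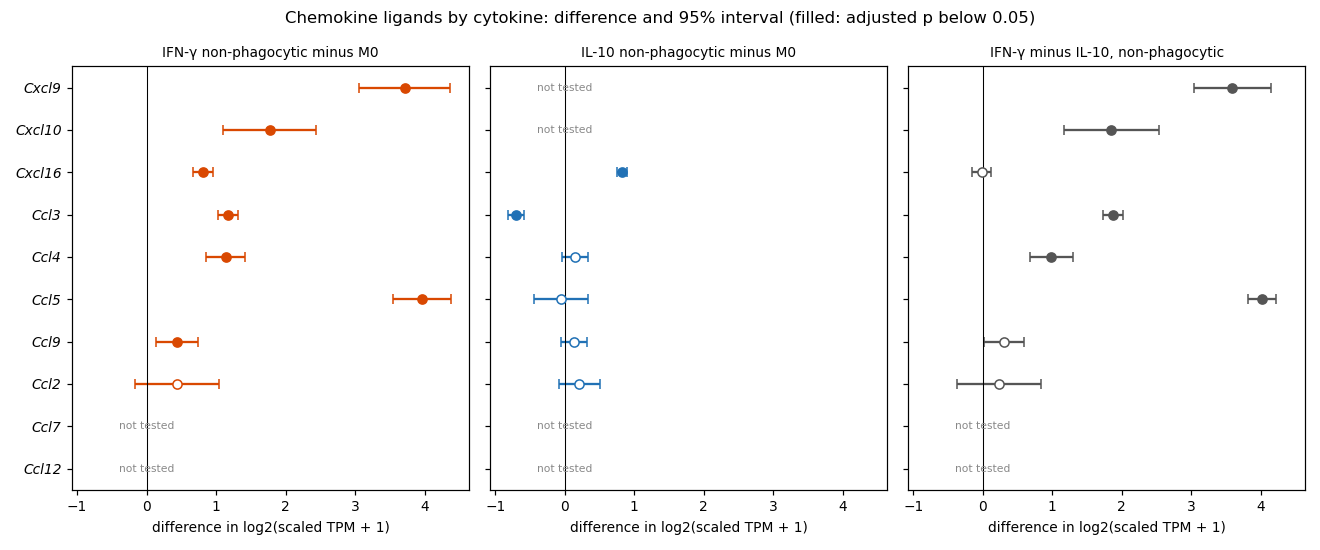
Differences of the 10 ligands between cytokines in non-phagocytic macrophages, as log2(scaled TPM + 1) on the horizontal axis, with 95% intervals from limma. Filled points have an adjusted p below 0.05; genes marked as not tested were under the filter. Ccl5 and Cxcl9 lie between 3.59 and 4.02 in both IFN-γ panels, and Ccl3 is the gene on the negative side that passed in the IL-10 panel.

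Uptake of Treg under IL-10 went with higher levels of most of the tested ligands in the fit of the 12 IL-10 libraries. In Treg-phagocytic against non-phagocytic macrophages, 7 of 8 tested members were higher and none was lower (Cxcl10, Cxcl16, Ccl2, Ccl3, Ccl4, Ccl5 and Ccl12), against 15.2% of 12197 genes called, 8.94% as higher and 6.28% as lower (1091 higher and 766 lower, or 641 and 1963 with no scaling). The median difference of the 8 was 0.54, against 0.00 for all genes tested. Cxcl10, at 1 TPM or more in 1 non-phagocytic library, passed the filter through the uptake libraries. In 1 fit over all 28 libraries, 3 members were called in place of 7. In Tconv-phagocytic against non-phagocytic macrophages, 4 of 8 were higher and none was lower (Cxcl16, Ccl3, Ccl4 and Ccl5), where 7.17% of genes were called, 5.26% as higher and 1.91% as lower (641 higher and 233 lower, or 293 and 896 with no scaling), and 1 in place of 4 was called in the fit of all 28. Both comparisons share the non-phagocytic libraries.

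Ccl5 had the largest difference on the log2(TPM + 1) scale, while Cxcl10, near 1 TPM, had the larger ratio of deposited means after Treg uptake, 3.15 against 2.03. Ccl5 read 32.7, 31.01, 28.65 and 28.66 TPM in non-phagocytic cells, 38.17, 54.77, 41 and 46.52 TPM after Tconv uptake, and 54.07, 72.87, 65.11 and 54.06 TPM after Treg uptake. Both uptake groups were above all non-phagocytic libraries, by 1.07 ± 0.11 for Treg (adjusted p = 4.67e-05) and 0.63 ± 0.11 for Tconv (adjusted p = 0.00405). Treg and Tconv groups overlapped and their difference of 0.44 ± 0.11 missed the threshold (adjusted p = 0.0636). Without Tconv BV421-2, the Tconv library with the most Ccl5, it passed (0.53, adjusted p = 0.0191).

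Ccl3, a CCR1 ligand, gave 3 separate levels. It was 60.48 to 67.28 TPM in non-phagocytic cells, 70.43 to 81.46 TPM after Tconv uptake and 85.81 to 97.76 TPM after Treg uptake. Treg exceeded non-phagocytic by 0.61 ± 0.05 (adjusted p = 1.23e-05), Tconv exceeded non-phagocytic by 0.30 ± 0.05 (adjusted p = 0.00394), and Treg exceeded Tconv by 0.31 ± 0.05 (adjusted p = 0.00795). This made Ccl3 the 1 of 8 tested members called between Treg and Tconv uptake under IL-10, where 2.32% of genes were called, 0.861% as higher and 1.46% as lower. In 1 fit over all 28 libraries that call (adjusted p = 0.122) and the Tconv call against non-phagocytic cells (adjusted p = 0.0604) were lost. Even after Treg uptake, Ccl3 was under the M0 range except for 2 libraries, at 95.01 and 97.76 TPM, that exceeded its lowest library of 94.09 TPM.

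Ccl4, the neighbour of Ccl3, was 35.66 to 47.04 TPM in non-phagocytic cells, 41.48 to 51.87 TPM after Tconv uptake and 46.89 to 56.27 TPM after Treg uptake. Its ranges overlapped in deposited TPM. The Treg difference of 0.42 ± 0.09 passed (adjusted p = 0.00679), and after scaling those groups were apart. The Tconv difference of 0.33 ± 0.09 passed narrowly (adjusted p = 0.0418) and was lost in 11 of 16 alternatives, including no scaling (adjusted p = 0.0935) and leaving out any of non-phagocytic replicates 1, 2 and 4 or Tconv BV421-1, BV421-2 and Ax647-2 (adjusted p = 0.0757 to 0.116).

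Cxcl10 rose from 1.3, 0.95, 0.55 and 0.3 TPM in non-phagocytic cells to 1.94, 2.48, 2.26 and 3.08 TPM after Treg uptake, apart in all libraries (0.99 ± 0.16, adjusted p = 0.00131). After Tconv uptake it read 1.29, 1.23, 1.26 and 1.09 TPM, and that difference of 0.38 did not pass (adjusted p = 0.211). The Treg libraries were all above the Tconv libraries too, but this difference of 0.61 ± 0.16 missed the threshold (adjusted p = 0.0755). Cxcl9 was under the filter, at 0.13 to 1.75 TPM over the 12 IL-10 libraries. Cxcl16 was 212.76 to 222.31 TPM without uptake, 234.58 to 243.07 TPM with Tconv and 220.83 to 239.4 TPM with Treg. Its differences were small, 0.21 ± 0.03 for Tconv (adjusted p = 0.00123) and 0.15 ± 0.03 for Treg (adjusted p = 0.00586), and the latter was lost with no scaling (adjusted p = 0.12).

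The CCR2 ligands stayed near 2 TPM, and Ccl2 passed only after Treg uptake. It read 1.25, 1.54, 1.37 and 1.95 TPM in non-phagocytic cells, 1.75, 2.18, 1.7 and 1.45 TPM after Tconv uptake and 3.15, 2.15, 2.03 and 2.8 TPM after Treg uptake. Treg and non-phagocytic groups were apart (0.52 ± 0.14, adjusted p = 0.0208), but 6 of 16 alternatives lost the call, and leaving out non-phagocytic replicate 1 or 3, or Treg Ax647-1 or BV421-2, lifted the adjusted p to between 0.0558 and 0.058. Ccl12, at 0.77 to 1.62 TPM without uptake, was 1.61 to 2.83 TPM after Tconv uptake and 1.62 to 2.92 TPM after Treg uptake. The Treg difference of 0.57 ± 0.17 was just inside the threshold (adjusted p = 0.0449) and was lost in 11 of 16 alternatives, 7 of them leaving out 1 library (non-phagocytic replicates 1 to 4, Treg Ax647-1, Ax647-2 or BV421-2; adjusted p = 0.05 to 0.119). The Tconv difference of 0.53 ± 0.17 was not called (adjusted p = 0.0988). Ccl7 was at most 0.68 TPM in these groups. Ccl9 did not pass in either comparison, with a difference of 0.06 after Treg uptake (interval −0.06 to 0.18) and −0.06 after Tconv uptake (interval −0.18 to 0.06).

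T cell markers rose with uptake beside these genes. All 25 tested were higher in Treg-phagocytic than in non-phagocytic cells with IL-10 (median 0.94 on the log2 scale, against 1.07 for Ccl5), 14 of 25 were higher in Tconv-phagocytic than in non-phagocytic cells (median 0.50, against 0.63 for Ccl5), and 6 of 25 were higher in Treg than in Tconv (median 0.49, against 0.44 for Ccl5). In M0, the library with the highest T cell marker sum, 365.6 TPM, was also the one with the highest Ccl5, 47.55 TPM. The same held within each IL-10 group, and in no IFN-γ group. IFN-γ non-phagocytic replicate 3 and Treg Ax647-1 had the highest sums of their groups, 1217.1 and 1349.9 TPM. Their Ccl5 was the lowest of those groups, 352.01 and 294.88 TPM. The part of T cell RNA in the ligand differences was not tested. The 8 markers of NK cells, which also make Ccl3, Ccl4 and Ccl5, summed to 0.05 to 1.77 TPM in the IL-10 libraries. The 12 stromal markers, from cells that can also make Ccl2, share Thy1 with the T cell list and summed to 96.85 to 101.2 TPM without uptake, 169.7 to 180.8 TPM with Tconv and 41.98 to 44.93 TPM with Treg. The B cell markers Cd79a (0.47, adjusted p = 0.0236) and Cd79b (0.81, adjusted p = 0.00179) were higher after Treg uptake, and Cd79b (0.75, adjusted p = 0.00566) after Tconv uptake, in a list of 8 that summed to 9.57 to 16.62 TPM in these libraries. Cd22 was called in neither, and the rest of the B cell list was under the filter. Cd79a, at most 0.7 TPM without uptake and 0.8 TPM with Tconv, passed the filter through the Treg libraries. The dendritic list, 3.15 to 6.66 TPM in sum, had Ccr7, its only tested member, higher after both, and 4 neutrophil markers were tested, 2 of them lower after Treg uptake. The part of these markers was not tested either.

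**Figure D3:**
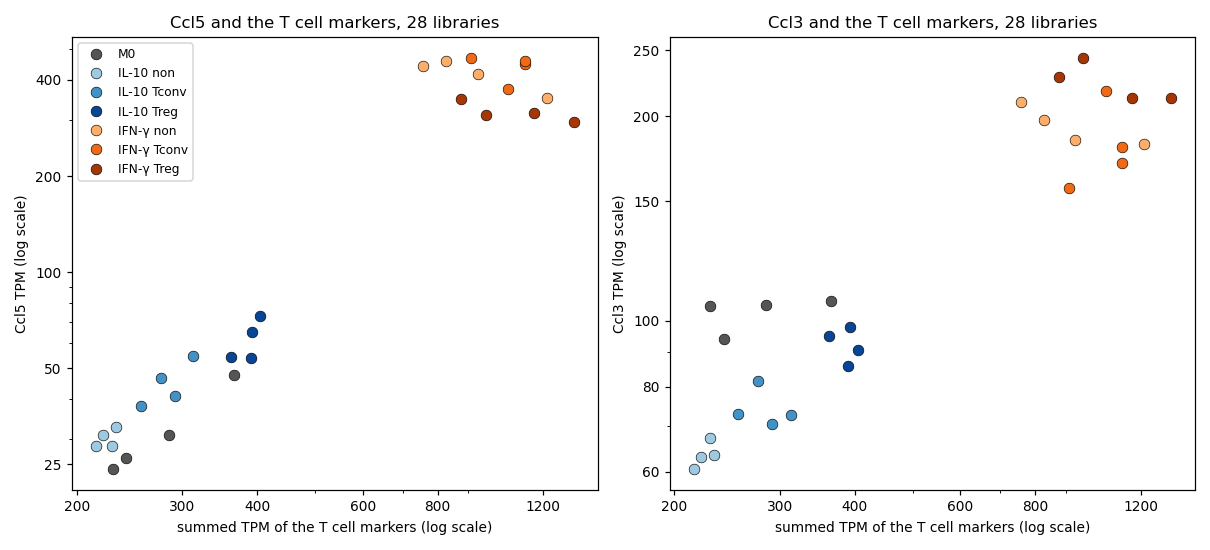
Ccl5 (left) and Ccl3 (right) in TPM against the summed TPM of 26 T cell markers, both on log axes, with 1 point per library in 7 groups. The sums include Il7r, with a mean of 159 TPM in M0, which did not follow most other markers. With IL-10 the group means climb from non-phagocytic through Tconv to Treg on both axes. With IFN-γ the marker sums of the 3 groups overlap, and the 4 Treg libraries have the lowest Ccl5 of the 12.

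Under IFN-γ, few ligands passed the test between uptake groups, and Ccl5 was lower after Treg uptake. Of 8 members tested, 2 were called between Treg-phagocytic and Tconv-phagocytic cells with Ccl3 higher and Ccl5 lower, where 14.9% of 12683 genes were called, 5.17% as higher and 9.71% as lower (656 and 1231, or 308 and 1547 with no scaling). Between Treg-phagocytic and non-phagocytic cells 2 of 8 were called, Ccl9 higher and Ccl5 lower, where 10.5% of genes were called, 2.74% as higher and 7.8% as lower (348 and 989, or 561 and 892 with median-of-ratios scaling). Between Tconv-phagocytic and non-phagocytic cells limma called 0 of 8 members and 0% of genes, with 1 member and 732 genes at an unadjusted p under 0.05. These 3 comparisons share libraries pairwise.

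Ccl5 read 440.6, 417.25, 352.01 and 456.83 TPM in non-phagocytic cells, 374.93, 469.01, 448.14 and 457.41 TPM after Tconv uptake, and 294.88, 311.17, 314.49 and 347.37 TPM after Treg uptake. All 4 Treg libraries were below all 8 others in deposited TPM. After scaling they still lay below the Tconv libraries and overlapped the non-phagocytic ones. Treg was lower than Tconv by −0.37 ± 0.10 on the log2 scale (adjusted p = 0.0195) and lower than non-phagocytic by −0.35 ± 0.10 (adjusted p = 0.0325). Neither call held in all alternatives. The first was lost in 5 of 17 alternatives: without Tconv BV421-2 (adjusted p = 0.0622), Tconv Ax647-2 (0.0556) or Treg Ax647-1 (0.0549), and in a fit of all 28 libraries with 1 variance (0.0554) or with a variance weight per group (0.492). The second was lost in 10 of 16 alternatives, among them median-of-ratios scaling (adjusted p = 0.0509), the fit of all 28 libraries with (0.57) or without (0.0752) variance weights, and leaving out non-phagocytic replicates 1, 2 or 4 or Treg Ax647-1, Ax647-2 or BV421-1 (0.0641 to 0.0917). Tconv and non-phagocytic cells differed by 0.02, with an interval of −0.19 to 0.22. The 26 T cell markers had a median difference of 0.26 in Treg against non-phagocytic cells, and in Treg against Tconv 2 of 26 were higher, with a median of 0.13. Of the NK cell markers, Klrk1 was lower after Treg uptake, by −1.44 against Tconv (adjusted p = 0.0239) and −1.90 against non-phagocytic cells (adjusted p = 0.0072), and NK marker sums were 0.37 to 4.64 TPM with Treg, 1.72 to 8.52 TPM with Tconv and 3.77 to 6.83 TPM without uptake. Klrk1 was at 0 to 0.44 TPM with Treg, at 0 in 2 libraries. It passed the filter through the Tconv and non-phagocytic libraries, so that its differences were partly set by the filter. Nkg7 was not called (−0.04, adjusted p = 0.972, and 0.58, adjusted p = 0.559), and the rest of the NK list was under the filter. The dendritic cell marker Clec9a was lower too, by −1.44 against Tconv (adjusted p = 0.0345) and −1.60 against non-phagocytic cells (adjusted p = 0.0267), while that list's sum was 18.19 to 23.11 TPM with Treg and 10.1 to 26 TPM without uptake. In the same comparisons Ccr7 (0.44 and 0.59) and Itgae (−0.28 and −0.46) were not called, and the rest of the dendritic list was under the filter. The part of these markers in the Ccl5 difference was not tested.

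Ccl3 read 209.96, 184.28, 181.83 and 197.61 TPM in non-phagocytic cells, 218.16, 157.08, 170.8 and 180.34 TPM after Tconv uptake and 213.06, 243.8, 212.62 and 228.8 TPM after Treg uptake. The Treg libraries overlapped the Tconv ones through a single Tconv library, BV421-1, at 218.16 TPM. Treg was higher than Tconv by 0.41 ± 0.10 (adjusted p = 0.0185), which was lost without Tconv BV421-2 (0.0609), Tconv Ax647-1 (0.0575) or Treg Ax647-2 (0.0525). Against non-phagocytic cells the Treg libraries were all higher in deposited TPM but overlapped them after scaling, and the difference of 0.25 ± 0.10 was not called (adjusted p = 0.149). Ccl4 was not called in either Treg comparison (0.36 ± 0.15 against non-phagocytic cells, adjusted p = 0.164). In the fit of all 28 libraries both genes passed against non-phagocytic cells (adjusted p = 0.0259 for Ccl3 and 0.0353 for Ccl4). Ccl4 was at 49.96 to 76.95, 68.9 to 83.73 and 64.45 to 99.98 TPM in non-phagocytic, Tconv and Treg cells.

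Ccl9 was 165.22, 225.56, 246.73 and 257.17 TPM in non-phagocytic cells, 289.7, 271.43, 271.67 and 254.51 TPM after Tconv uptake and 343.91, 277.38, 306.16 and 304.29 TPM after Treg uptake. The Treg libraries were all above the non-phagocytic ones, by 0.51 ± 0.11 (adjusted p = 0.0113), and this call was kept in all 16 alternatives. Treg against Tconv gave 0.27 ± 0.11 (adjusted p = 0.137), and Tconv against non-phagocytic 0.25 ± 0.11 (adjusted p = 0.865). Macrophage markers rose beside it: 6 of 14 were higher in Treg than in non-phagocytic cells and none was lower, while their summed level was 22190.2 to 22983.2 TPM without uptake and 26101.1 to 26691.8 TPM with Treg. Most of that sum is Lyz2, with means of 15025.4 TPM without uptake and 18156.1 TPM with Treg. C1qb (1266.9 and 1169.9 TPM) and Fcgr1 (55.7 and 49.2 TPM) had lower means with Treg, and the rest had higher means. Their part in the difference of Ccl9 was not tested.

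Cxcl9 hinged on 1 library. It read 13.62, 17.18, 15.11 and 15.6 TPM in non-phagocytic cells and 23.91, 19.9, 25.67 and 24.15 TPM after Tconv uptake. After Treg uptake it was 7.31, 12.45 and 6.72 TPM in 3 libraries and 31.54 TPM in Ax647-2. With all libraries, Treg against Tconv gave −0.83 ± 0.35 and was not called (adjusted p = 0.138). Without Treg Ax647-2 it was −1.28 (adjusted p = 0.000829), and Treg against non-phagocytic cells was −0.76 (adjusted p = 0.0238). Tconv libraries were all above non-phagocytic ones, but that difference of 0.52 ± 0.35 did not pass (adjusted p = 0.906). Cxcl10 ranged over 2.02 to 8.38 TPM in the 12 IFN-γ libraries, with all 3 groups overlapping, and its interval for Treg against Tconv was −0.96 to 0.60. Cxcl16 was level, at 164.17 to 195.89 TPM over the 12, with an interval for Treg against Tconv of −0.17 to 0.15. Ccl2 ranged over 0.58 to 4.44 TPM, on the order of 1.5 to 11 reads per library, and its largest difference, 0.65 for Treg against non-phagocytic cells, had an interval of −0.07 to 1.37. Ccl7 and Ccl12 were at 0 in 6 and 9 of the 12 libraries and were not tested.

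**Figure D4:**
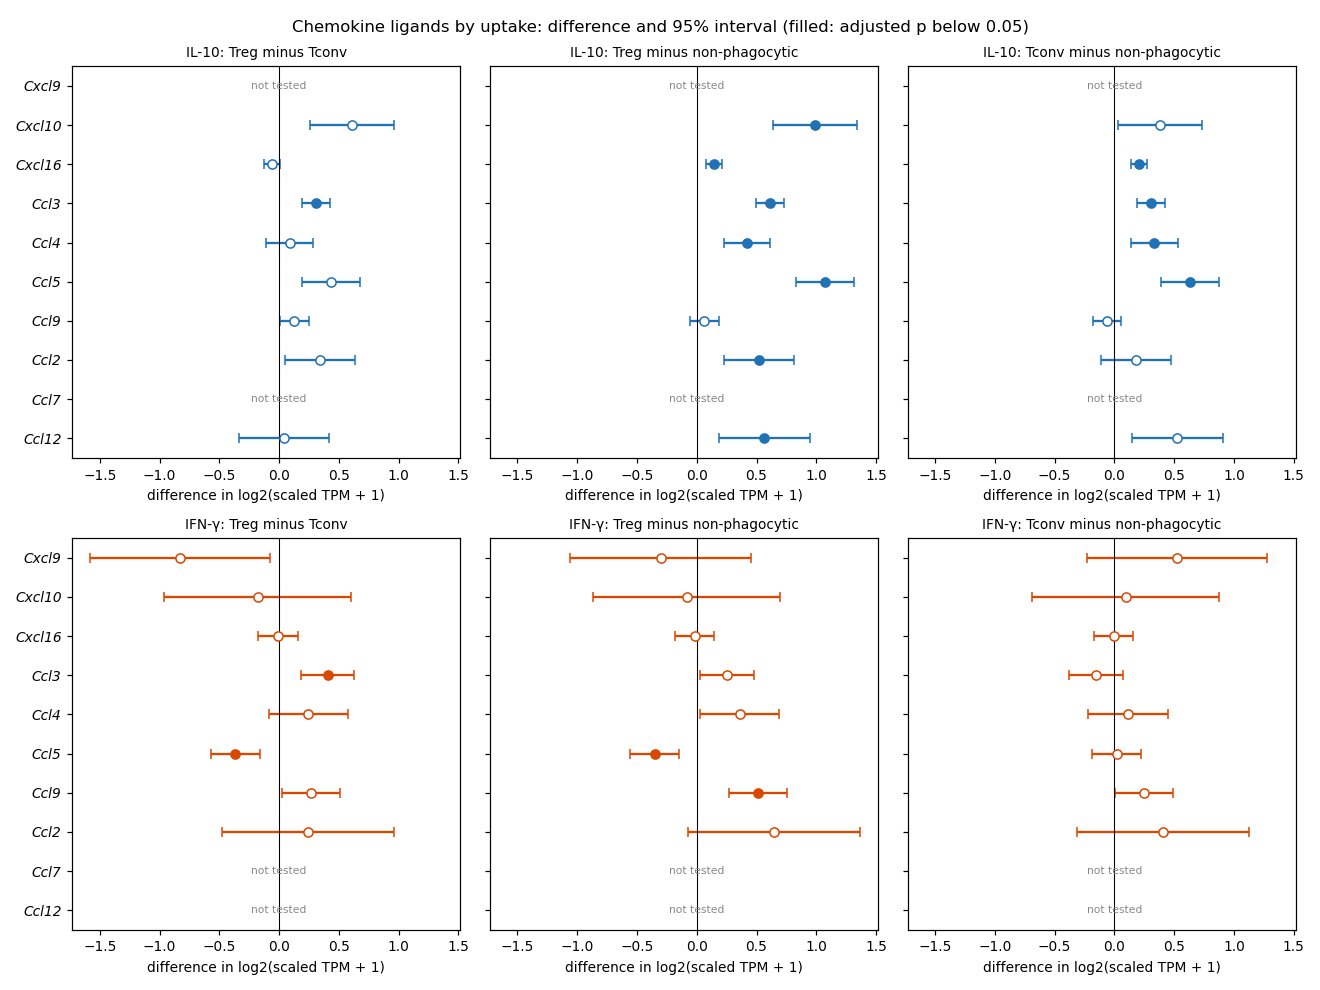
Differences of the 10 ligands between uptake groups with IL-10 (top, blue) and IFN-γ (bottom, orange), as log2(scaled TPM + 1) with 95% intervals from limma. Filled points have an adjusted p below 0.05. For Treg minus non-phagocytic, 7 ligands are filled to the right of 0 with IL-10, while with IFN-γ Ccl9 is filled to the right and Ccl5 to the left.

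The difference between cytokines was tested directly in fits of 16 libraries, as the effect of uptake with IFN-γ minus the effect with IL-10. Ccl5 differed in all 3. For Treg against non-phagocytic cells the effect was −1.42 ± 0.15 lower with IFN-γ (adjusted p = 1.4e-05), a call kept in all 24 alternatives. In that comparison 2 of 9 members tested were called, both lower, against 9.63% of 12872 genes called, 2.34% as higher and 7.29% as lower (301 higher and 938 lower, or 448 and 810 with no scaling and 455 and 802 with median-of-ratios scaling). The second was Ccl3, at −0.36 ± 0.10 (adjusted p = 0.0289), which was lost in 11 of 24 alternatives, 9 of them leaving out 1 library (IFN-γ non-phagocytic 1 or 4, IFN-γ Treg Ax647-1 or BV421-1, IL-10 non-phagocytic 1, 2 or 3, IL-10 Treg Ax647-1 or BV421-1; adjusted p = 0.0513 to 0.0657). Ccl9, at 0.45 ± 0.15, was not called (adjusted p = 0.0695) but passed without IFN-γ non-phagocytic replicate 4 (0.53, adjusted p = 0.0304). For Treg against Tconv, Ccl5 alone of 9 was called (−0.81 ± 0.16, adjusted p = 0.0032; 13.8% of 12918 genes were called, 5.05% as higher and 8.73% as lower, 652 and 1128, or 340 and 1427 with no scaling), and was lost with a variance weight per group in a fit of all 28 libraries (adjusted p = 0.124). For Tconv against non-phagocytic cells it was −0.61 ± 0.15 (adjusted p = 0.044; 1 of 9 members, where 1.82% of 13075 genes were called, 0.229% as higher and 1.59% as lower, 30 and 208, or 78 and 43 with no scaling, which shifts the median of all genes to 0.11). That call was lost in 21 of 24 alternatives, including leaving out any library but IFN-γ non-phagocytic replicate 3 and IL-10 Tconv BV421-1 (adjusted p = 0.0521 to 0.104). Ccl3, at −0.46 ± 0.13, was not called there (adjusted p = 0.0933) but passed without IFN-γ Tconv BV421-1 (−0.56, adjusted p = 0.00464). For Treg against Tconv, Cxcl9 passed without IFN-γ Treg Ax647-2 (−1.39, adjusted p = 0.013). Cxcl10 did not pass in any of the 3, though its estimate for Treg against non-phagocytic cells was −1.08 with an interval of −2.03 to −0.12 (adjusted p = 0.16). The NK cell marker Klrk1 was lower in the Treg against non-phagocytic difference (−1.83, adjusted p = 0.0015) and Clec9a in that of Treg against Tconv (−1.38, adjusted p = 0.0417). Nkg7 was not called in the former (0.12, adjusted p = 0.935). Ccr7 (0.10, adjusted p = 0.853) and Itgae (−0.40, adjusted p = 0.49) were not called in the latter. Klrk1 and Clec9a passed the filter in these comparisons through the IFN-γ libraries, Klrk1 through the non-phagocytic ones. Their differences were thus partly set by the filter. Of the T cell markers, 5 of 26 were lower in the Treg against non-phagocytic difference, with a median of −0.69; their medians were −0.39 for Treg against Tconv and −0.42 for Tconv against non-phagocytic cells.

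Among the 28 other chemokine ligands, most were too low to test. Against M0, 6 of 8 tested rose with IL-10 and none fell (30.7% of all genes were called), and with IFN-γ 3 of 8 rose and 1 fell, a share close to the 57.2% of all genes called. Ccl8 and Ppbp, under 1 TPM in M0, passed the filter through the cytokine libraries, which set part of these counts. Ccl6, a CCR1 ligand next of kin to Ccl9, was the most abundant of those named here in M0, at 481 ± 25 TPM in M0, 802 ± 21.6 TPM with IL-10 and 392 ± 22.7 TPM with IFN-γ in non-phagocytic cells (SD, n = 4). Pf4, better known from platelets, went from 177.72 to 198.52 TPM in M0 to 1009.54 to 1061.9 TPM with IL-10 (2.43 ± 0.04, adjusted p = 1.25e-10). Ppbp, another platelet chemokine, reached 17.27 to 21 TPM with IL-10 (3.69 ± 0.11, adjusted p = 9.84e-09). Ccl8, which binds several CCR receptors, rose with both cytokines, by 3.23 with IL-10 (adjusted p = 6.79e-08) and 3.82 with IFN-γ (adjusted p = 2.83e-06). With IL-10, Treg uptake left Ccl8 higher by 1.14 (adjusted p = 9.26e-06), Ppbp by 0.72 (adjusted p = 0.00011), Pf4 by 0.24 (adjusted p = 0.000765) and Ccl6 by 0.09 (adjusted p = 0.0308), and Cxcl2, a neutrophil attractant, lower by −0.39 (adjusted p = 0.00401), which made 4 higher and 1 lower of 9 (15.2% of all genes were called). With IFN-γ, Treg exceeded Tconv cells in 3 of 8 (14.9% of all genes were called): Ccl6 (0.31, adjusted p = 0.00692), Cxcl2 (0.73, adjusted p = 0.0243) and Pf4 (0.49, adjusted p = 0.0153). Against non-phagocytic cells with IL-10, Tconv uptake went with higher Ccl8 (0.90, adjusted p = 0.000109), Ppbp (1.05, adjusted p = 9.67e-06) and Pf4 (0.38, adjusted p = 4.77e-05) and lower Cxcl2 (−0.34, adjusted p = 0.0157), 3 higher and 1 lower of 9 (7.17% of all genes were called). Ccl27a also passed for IFN-γ against M0 (0.68, adjusted p = 0.0357), but has near-identical copies in the genome and is uncertain.

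Chemokine receptors moved in both directions with the cytokines. Ccr1, the receptor of CCL9 and CCL3, was 16.49 to 17.58 TPM in M0, 33.37 to 39.14 TPM with IL-10 and 6.44 to 8 TPM with IFN-γ in non-phagocytic cells. It was higher with IL-10 by 1.05 ± 0.05 (adjusted p = 3.67e-07) and lower with IFN-γ by −0.89 ± 0.10 (adjusted p = 4.84e-05). Ccr2 rose with IL-10, from 6.44 to 7.68 TPM to 28.63 to 31.3 TPM (1.91, adjusted p = 2.6e-08). Of the receptors tested, 4 of 8 were higher and 1 lower with IL-10 (30.7% of all genes were called), and 3 of 9 higher and 5 lower with IFN-γ (57.2%). Cxcr4, the CXCL12 receptor, was also higher with IL-10 (0.50, adjusted p = 1.61e-06) and lower with IFN-γ (−0.57, adjusted p = 3.72e-06), and Ccrl2, a decoy-like receptor, was lower with both (−0.55, adjusted p = 0.00113, and −0.63, adjusted p = 0.000146). Ccr7 (2.27, adjusted p = 0.000166) and Cxcr3 (1.06, adjusted p = 0.00426), which T cells carry, were higher with IFN-γ. After Treg uptake with IL-10, 3 of 8 were higher and 3 lower (15.2% of all genes were called), with Ccr1 lower by −0.28 (adjusted p = 0.00239) and Cxcr4 by −0.10 (adjusted p = 0.0367), and Ccr7 higher by 0.81 (adjusted p = 0.000589), Cxcr3 by 0.54 (adjusted p = 0.0175) and Ccrl2 by 0.30 (adjusted p = 0.0251). With IFN-γ, Treg uptake went with higher Ccr1 (0.61, adjusted p = 0.0242), Ccrl2 (0.72, adjusted p = 0.0356) and Cxcr4 (0.30, adjusted p = 0.0159) against non-phagocytic cells, 3 of 11 tested, and none was lower (10.5% of all genes were called).

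Genes upstream of the ligands were followed as a list of 22 receptors, kinases, transcription factors, inhibitors and proteases. Irf1, a transcription factor gene induced early by IFN-γ, was 44.04 to 50.45 TPM in M0 and 189.1 to 212.51 TPM with IFN-γ in non-phagocytic cells (2.35, adjusted p = 1.28e-08). Socs3, a feedback inhibitor and target of IL-10 signalling, was 2.62 to 5.16 TPM in M0 and 161.59 to 172.19 TPM with IL-10 (5.13, adjusted p = 6.28e-09). In all, 13 of 21 tested rose and 5 fell with IFN-γ (57.2% of all genes were called), and 12 of 20 rose and 2 fell with IL-10 (30.7% of all genes). The genes that rose with IFN-γ also included Nfkbia (1.55, adjusted p = 6.07e-08), Socs1 (1.70, adjusted p = 5.04e-05) and Rel (1.05, adjusted p = 2.03e-05), and those that fell included Mmp12 (−1.95, adjusted p = 6.97e-09) and Adam10 (−0.97, adjusted p = 1.84e-06), a protease that sheds CXCL16. With IL-10, Stat3, its main transcription factor, rose by 1.02 (adjusted p = 6.66e-07) and Mmp12 fell by 1.96 (adjusted p = 1.25e-10). With IFN-γ, Treg-phagocytic cells were lower than Tconv-phagocytic cells in 6 of 22 and higher in 2 (14.9% of all genes were called). Stat2, a mediator of interferon signalling, was 18.72 to 26.21 TPM after Treg uptake against 63.97 to 92.05 TPM after Tconv uptake (−1.61, adjusted p = 1.42e-05). Irf1 (−1.12, adjusted p = 6.94e-05), Stat3 (−0.90, adjusted p = 0.000121), Rel (−0.87, adjusted p = 8e-04) and Nfkbia (−0.49, adjusted p = 0.00369) were also lower. Il10rb (0.41, adjusted p = 0.0108) and Mmp12 (0.45, adjusted p = 0.0161), a protease that cuts chemokines, were higher. Against non-phagocytic cells, 5 of 22 were lower after Treg uptake and none was higher (10.5% of all genes were called), with Stat2 at −1.52 (adjusted p = 3.1e-05) and Irf1 at −0.89 (adjusted p = 0.000459). With IL-10, Irf1 had a mean of 68.3 TPM in each of the 3 uptake groups.

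Across the 28 libraries, the members were set beside the 8722 other genes with a mean of at least 5 TPM, by Pearson's r on log2(scaled TPM + 1), as a description of likeness in which the libraries share groups and depth. Ccl5 ran most like B2m (r = 0.99), the light chain of class I MHC, with Ly6a and Sat1 next (both r = 0.99). Ccl4 ran most like Cd4 (r = 0.96), the T cell coreceptor, and Cxcl10 most like Ltb (r = 0.93), Cd4 and Skap1 (both r = 0.92), which T cells make. Cxcl9 was nearest to Srsf1, Rn7sk and Hnrnpa2b1 (all r = 0.97), the first and last of which encode RNA-binding proteins. Ccl3 was nearest to Rilpl2 (r = 0.99) and Set and Lgals1 (both r = 0.98), Cxcl16 to Wfdc17 (r = 0.94) and Zfp36 and Rap1b (both r = 0.93), and Ccl9 to Tspan32 and Snrpe (both r = 0.92) and Psma2 (r = 0.91). The low genes had weaker matches, from Ccl12 with Sh3gl1 and Ccr2 (both r = 0.86) to Ccl2 with Ube2f (r = 0.81) and Ccl7 with Foxp4 (r = 0.71). Within the list, Cxcl9 and Ccl5 ran closest (r = 0.96) and Ccl3 and Ccl12 furthest apart (r = −0.55).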

How the data were processed

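Sequencing of polyadenylated RNA from 28 libraries was analysed from tables in which the authors deposited TPM, rounded to 2 decimals, for 55487 Ensembl genes. STAR, RSEM and mm10 are named per the submitters' processing notes, with versions not given in the sources used here. Libraries were prepared with a strand-specific kit, per the labels' protocols. Symbols were found for 55141 genes. Since TPM is no count, log2(TPM + 1) was fitted with limma 3.58.1 (R 4.3.3; lmFit, eBayes with trend), after scaling by a mean of log ratios to 1 reference library trimmed by 30% of ratios and 5% of levels, over genes reaching 1 TPM in 4 or more libraries; the form of the scaling was settled after the values were seen. Uptake was compared in the 12 libraries of 1 cytokine, cytokines in the 8 libraries of both groups, and differences in 16, with Benjamini-Hochberg adjustment over all genes tested, called below 0.05. The main fits did not hold all 28 libraries because the IFN-γ groups vary more than the others. Those that set IFN-γ groups beside M0 or IL-10 groups still shared 1 variance per gene.

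Named genes were all 10 members, genes of the ligand, receptor and regulator lists that were called and had a group mean of at least 5 TPM (of the regulators, the leading ones), and the 3 genes most like each member; some genes that this rule names are not reported here. Members and lists were chosen with earlier results of these data known. Relative depth came from the steps between low TPM of 14527 genes with a single transcript of 500 to 2000 nt; 52.1 to 63.1% of low values came within 0.15 reads of whole multiples, where 30% would by chance, so the depths are approximate. Reads per TPM used the longest GENCODE transcript. Of 378 pairs of libraries, 0 held identical values. Motifs were sought with Python 3.11.15 in the 250 bases before each start. The fits were tested on simulated data. Alternatives were another scaling or none, a pseudocount of 0.1, no filter, fits of all 28 libraries, a replicate block, the dye as covariate and leaving out each library.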

Additional observations from a re-analysis of the deposited data

Results flagged for a closer look

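In 6 of the 70 sets of 4 libraries examined (10 ligands in 7 groups), 1 library lay far from the other 3 by Dixon's criterion, which chance does in about 1 set of 20. Cxcl9 in M0 replicate 1 was 1.83 TPM, against 0.02 to 0.25 TPM in the others. Cxcl16 in IFN-γ Treg BV421-2 was 186.17 TPM, against 164.17 to 165.48 TPM. Ccl3 in M0 replicate 2 was 94.09 TPM, against 105.27 to 106.92 TPM. For Ccl12, 1 library per IFN-γ group was above 0 and the other 3 were at 0: 0.98 TPM in non-phagocytic replicate 2, 1 TPM in Tconv Ax647-1 and 2.15 TPM in Treg Ax647-2, each worth no more than about 1.7 reads. With 3 libraries at 0 the criterion is met whatever the remaining value. These 3 Ccl12 sets therefore cannot be set against the rate of 1 in 20.

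The effect of uptake differed between the cytokines for 2 ligands, by a test of the difference itself. Ccl5 differed for Treg against Tconv (−0.81, adjusted p = 0.0032), for Treg against non-phagocytic cells (−1.42, adjusted p = 1.4e-05) and for Tconv against non-phagocytic cells (−0.61, adjusted p = 0.044). Ccl3 differed for Treg against non-phagocytic cells (−0.36, adjusted p = 0.0289). The Ccl5 call for Tconv against non-phagocytic cells was lost in 21 of 24 alternatives and that of Ccl3 in 11 of 24. For Treg against Tconv the Ccl5 call was lost in 1 of 24, and for Treg against non-phagocytic cells in none.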

How the results depend on the processing

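No difference of a member changed direction past the threshold under any alternative; of the member values under other settings, 724 kept their side of the threshold, 35 lost and 11 gained a call, and with 1 library left out 927 kept it, 56 lost and 9 gained a call. Ligands called, over the runs that left out 1 library, ranged from 0 to 2 for IFN-γ Treg against Tconv (2 in the main analysis), 1 to 2 for IFN-γ Treg against non-phagocytic (2), 1 to 2 for IL-10 Treg against Tconv (1), and, for the differences between cytokines, 1 to 2 for Treg against Tconv (1), 1 to 2 for Treg against non-phagocytic (2) and 0 to 1 for Tconv against non-phagocytic (1). Genes called then ranged from 169 to 260 for IL-10 Treg against Tconv (283) and 146 to 364 for the Tconv difference (238). A single fit of all 28 libraries called 0 ligands for IL-10 Treg against Tconv, 3 for IL-10 Treg and 1 for IL-10 Tconv against non-phagocytic, and 4201, 3611 and 123 genes for the IFN-γ comparisons (Treg against Tconv, Treg and Tconv against non-phagocytic), 106, 623 and 245 for the same with IL-10 and 1812 for IL-10 against M0. With a variance weight per group it called 1 ligand for IFN-γ Treg against Tconv and against non-phagocytic, and 0, 1 and 0 for the 3 differences. Median-of-ratios scaling and no filter each called 1 for IFN-γ Treg against non-phagocytic, and 0 for the Tconv difference. No scaling and the dye as covariate also called 0 for the Tconv difference, with 121 genes called under no scaling. A pseudocount of 0.1 called 1 gene for IFN-γ Tconv against non-phagocytic. Deviations of same-numbered libraries correlated weakly (−0.07 to 0.09), and numbers were not taken as pairs. Such libraries were each other's best match in 0 to 3 of 4 pairs per comparison, with 3 for IFN-γ Tconv against non-phagocytic. With a replicate block, IL-10 Treg against Tconv gave 2 ligands, the Treg against non-phagocytic difference 1, and the Tconv difference 118 genes, and no other count of calls moved by over 1.5 times. The causes were not tested. Depth limits the ligands under 3 TPM with IFN-γ.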
